A study of Mus musculus with 80 samples.

Results

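Neurog3, Sox3, Upp1 and Lin28a, 4 genes associated with the progenitor state of spermatogonia, were described in sorted and single germ cells of the neonatal mouse testis. They were chosen by name, and they are 4 of the 27128 gene rows in the deposited tables, where Lin28a is listed under its older symbol Lin28. All cells came from male mice of the strain B6;CBA-Tg(Pou5f1-EGFP)2Mnn/J at postnatal day 5.5. This transgene puts green fluorescent protein under regulatory sequence of Pou5f1 (Oct4), so a cell enters a sort by activity of that sequence and the controls carry it too. The sorted material was CD87 negative and CD87 positive cells, with 2 Smart-seq2 libraries each. Plaur encodes CD87, a receptor for urokinase. The single cells were 71 Oct4-GFP positive, KIT negative cells captured on a Fluidigm C1 machine. The other 5 libraries of the series, from sorts on the level of Oct4-GFP and from cultured cells given siRNA, were not analysed here. Nothing in the labels says that libraries or cells came from separate animals, or whether animals were pooled. P-values for the sorted cells therefore measure the spread between libraries, which may be technical, and the 71 cells were treated as 1 sample with no test.

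Undifferentiated spermatogonia hold stem cells and the progenitors that leave the stem state before meiosis. The growth factor GDNF, read by the receptor GFRA1, maintains the stem state and keeps the transcription factor ETV5 expressed, whereas cells that express NEUROG3 are mostly primed to differentiate under retinoic acid. Neurog3 encodes a basic helix-loop-helix transcription factor that binds E-box sequences with an E-protein partner. Sox3 encodes an HMG-box transcription factor of the SOXB1 group, which acts upstream of Neurog3 in mouse spermatogonia. Lin28a encodes an RNA-binding protein that blocks the maturation of let-7 microRNAs and is present in undifferentiated spermatogonia. Upp1 encodes uridine phosphorylase, which splits uridine into uracil and ribose phosphate.

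The 4 genes lie on separate chromosomes. In RefSeq build GRCm38.p6, Neurog3 spans chr10:62133090-62134763 with 2 exons and Sox3 spans chrX:60891366-60893430 with 1 exon. Upp1 spans chr11:9118008-9136170 with 9 exons, and Lin28a spans chr4:134003330-134019196 with 4 exons. Exon counts are from the GENCODE M21 basic set. The authors' tables were made on the older build mm9 and carry no coordinates, so none were converted. The promoter windows below are shown because both hold the letters CAGCTG, an E-box of the kind that basic helix-loop-helix factors bind. They run over 300 bases around a RefSeq gene start, most of them upstream, and both lie on the plus strand, at chr10:62132840-62133139 for Neurog3 and chr11:9117758-9118057 for Upp1. Capitals mark the E-box and, in the Neurog3 window, the SOX motif ACAAAG read on the opposite strand as CTTTGT.
Neurog3: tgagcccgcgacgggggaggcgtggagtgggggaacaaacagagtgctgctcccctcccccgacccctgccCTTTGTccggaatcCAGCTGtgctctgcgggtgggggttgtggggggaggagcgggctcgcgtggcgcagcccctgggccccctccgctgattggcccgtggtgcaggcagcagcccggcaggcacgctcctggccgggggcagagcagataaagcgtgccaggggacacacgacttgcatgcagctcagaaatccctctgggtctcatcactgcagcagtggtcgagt
Upp1: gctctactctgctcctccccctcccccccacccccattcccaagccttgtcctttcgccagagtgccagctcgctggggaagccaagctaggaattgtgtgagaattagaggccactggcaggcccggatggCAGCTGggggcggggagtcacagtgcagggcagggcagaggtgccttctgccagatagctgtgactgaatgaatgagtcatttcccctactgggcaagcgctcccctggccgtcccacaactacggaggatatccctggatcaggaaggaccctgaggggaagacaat
The E-box lies 165 bases before the Neurog3 start and 118 bases before this Upp1 start, and the SOX motif lies 179 bases before the Neurog3 start. All 3 Upp1 windows in the table hold 1 E-box, but windows 1 and 2 overlap each other and hold the same E-box. The Lin28a window at chr4:134018767-134019066, on the minus strand, holds none of the motifs searched, which also included the ETS motif CCGGAAG. Among 32544 mouse promoter windows of the same length, searched on both strands, CAGCTG occurs in 16.4%, ACAAAG in 18.7% and CCGGAAG in 8.91%. The matches in the windows shown do not overlap each other. A match describes these letters and is no evidence of binding.

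The sorted libraries are given as TPM, relative transcript abundances scaled by gene length, which keep no sequencing depth. Between 12063 and 16267 genes were above 0 per library, fewest in CD87 positive library 2. Plaur stood at 0.46 and 0.97 TPM in the CD87 negative libraries and at 3.53 and 8.92 in the CD87 positive ones, in the order of the labels. Markers of germ cells were summed at 1075 and 1124 TPM in the negative and 1092 and 1200 in the positive libraries. Among 14 macrophage and leukocyte markers, summed TPM was 15.9 and 12.6 in the negative against 369 and 294 in the positive libraries. Apoe alone stood at 189.39 and 127.66 TPM in the positive libraries. Of the 14, 7 were listed at 0 in both negative libraries, and 4 were detected in none of the 71 cells. Lyzs, Tyrobp, Laptm5 and Aif1 were detected in 1 cell each, but Fcer1g in 24, Cd14 in 21, Apoe and Cd68 in 17 each and Csf1r in 16. Of 11 measured Sertoli cell markers, the sums were 81.8 and 152 against 77.4 and 12.8, lowest in CD87 positive library 2. Peritubular myoid markers were summed at 21.9 and 16.5 against 43 and 68.6, Leydig cell markers at 5.26 and 4.23 against 2.20 and 2.69, and endothelial markers at 2.22 and 3.19 against 4.33 and 7.15. Most of the myoid sum was Smoc2, at 16.87 and 9.49 against 37.14 and 51.93 TPM, which was detected in 64 of the 71 single germ cells, and most of the Leydig sum was Star, detected in 61 of them. For the single cells the tables hold expected counts, with totals of 182163 to 6802787 per cell (median 1585930).

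The first comparison asked how the 4 genes are expressed in cells that carry CD87 and cells that do not. None of the 4 passed the test. Upp1 averaged 6.83 ± 1.69 TPM in CD87 negative and 1.08 ± 1.53 TPM in CD87 positive cells (SD, n = 2 libraries each), and Sox3 9.04 ± 1.14 against 5.48 ± 0.693 TPM. Lin28a and Neurog3 overlapped between the groups. The reference genes stood the other way. Gfra1, the GDNF co-receptor, was 21.27 and 20.79 TPM in the negative and 53.12 and 52.91 in the positive libraries. Etv5, a transcription factor downstream of GDNF, was 13.33 and 14.93 against 47.34 and 43.13 TPM. Their log2 differences were 1.29 and 1.61 with limma adjusted p of 0.597 and 0.483, so neither passed the test. Across the 12715 genes tested, 0.0236% passed the threshold (3 genes, all higher in CD87 positive, among them the macrophage markers Apoe and Lyzs), 20.4% were higher in both positive libraries than in both negative ones, and 14.5% were lower in both. Of the 4 members, 0 passed, and the 2 that were lower without overlap were Sox3 and Upp1. All 4 members passed the filter of at least 1 TPM in at least 2 libraries. In bulk libraries, fewer cells of a type and less RNA per cell cannot be told apart.

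**Figure D1:**
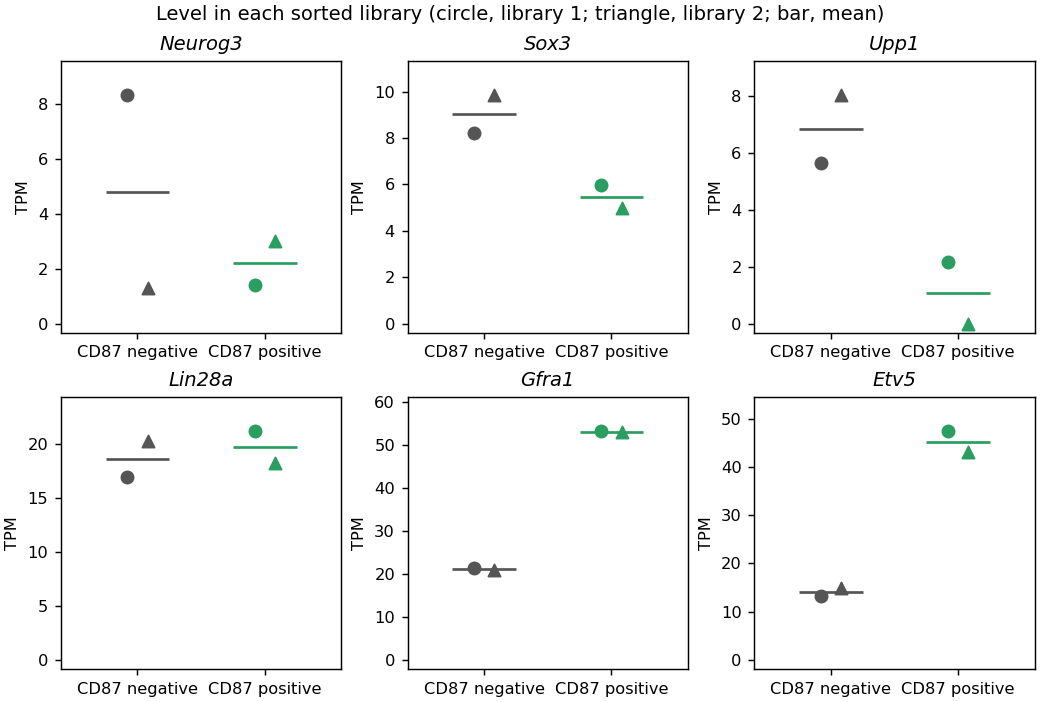
TPM (vertical axis, linear, starting at 0) of the 4 progenitor-state genes and of Gfra1 and Etv5 in each CD87 library, with circles for library 1, triangles for library 2 and a bar at the mean. Upp1 and Sox3 sit lower in both CD87 positive libraries, Lin28a lies between 17.01 and 21.20 TPM in all 4, and the Neurog3 mean of the CD87 negative group is set by a single library at 8.33 TPM.

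Sox3 stood at 8.23 and 9.84 TPM in CD87 negative cells against 5.97 and 4.99 TPM in CD87 positive cells. The groups did not overlap, and the nearest libraries of the groups lay further apart than the libraries within either group. The log2 difference of log2(TPM + 1), positive minus negative, was -0.63 (SE 0.47), with limma p = 0.217 and Benjamini-Hochberg adjusted p = 0.863. Neurog3, the gene that SOX3 acts upstream of, was 8.33 and 1.31 TPM in the negative and 1.41 and 3.00 TPM in the positive libraries. Here the 2 negative libraries lay further apart than the group means, 4.82 ± 4.96 against 2.21 ± 1.12 TPM (SD, n = 2). The log2 difference was -0.58 (SE 0.79; limma adjusted p = 0.913). Leaving out CD87 negative library 1 turned it to 0.43. Sox3 and Neurog3 therefore differed in which negative library was highest, library 2 for Sox3 and library 1 for Neurog3.

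Lin28a had the highest TPM of the 4 genes in every library, at 17.01 and 20.30 in the CD87 negative and 21.20 and 18.29 in the CD87 positive libraries. The groups overlapped, with means of 18.7 ± 2.33 and 19.7 ± 2.06 TPM (SD, n = 2). The log2 difference was 0.08 (SE 0.35; limma adjusted p = 0.977), and its sign turned when the TPM were rescaled or when CD87 negative library 1 or CD87 positive library 1 was left out, to between -0.042 and -0.022. Lin28b, the paralog with the same action on let-7, was 6.03 and 5.59 against 6.71 and 8.44 TPM, a log2 difference of 0.33. Lin28a exceeded Lin28b in TPM in all 4 libraries.

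Upp1 stood at 5.63 and 8.02 TPM in CD87 negative cells against 2.16 and 0 TPM in CD87 positive cells. The value of 0 is in CD87 positive library 2, the library with the fewest genes above 0. The log2 difference was -2.12 (SE 0.73), with an unadjusted limma p of 0.0182 and an adjusted p of 0.863. Upp1 was the 1 member of 4 with an unadjusted p under 0.05, and 1.75% of all tested genes had a smaller p. Its size depended on the library at 0 and on the pseudocount. Without CD87 positive library 2 the log2 difference was -1.29, without CD87 positive library 1 it was -2.95 (limma adjusted p = 0.0633), and it was -3.84 with a pseudocount of 0.1 and -0.98 with 5. Over all alternatives the adjusted p of Upp1 ran from 0.0633 to 0.99995. The macrophage marker sum was higher and, in library 2, the Sertoli marker sum lower in the CD87 positive libraries where Upp1 and Sox3 were low, and their part in these values was not tested.

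Genes grouped around each member were described by the same fit over all genes, where the median log2 difference was 0.0147. A list of 11 other genes, called the other progenitor genes here, also holds genes of undifferentiated spermatogonia at large. Its median is therefore not one of the progenitor state alone. None of the 11 passed, 1 had an unadjusted p under 0.05, and their median was 0.33. Of these, 4 were higher and 2 lower without overlap, against 20.4% and 14.5% of all genes. The 2 lower genes were Sohlh1 and Rarg, the retinoic acid receptor of progenitors, at 5.78 and 5.27 TPM in the negative and 2.65 and 3.72 in the positive libraries. Rarg was named after its values were seen. Cdh1, which encodes the adhesion protein E-cadherin of undifferentiated spermatogonia, was 3.16 and 1.14 TPM in the negative and 8.12 and 19.14 in the positive libraries. Nanos3, an RNA-binding protein of the same cells, was 9.76 and 20.50 against 21.49 and 22.97 TPM. Sohlh1, a transcription factor that drives differentiation, was 97.71 and 136.07 against 85.22 and 95.90 TPM.

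In the LIN28 and let-7 group, 17 of 18 genes were tested and none passed, with 11 higher and 0 lower without overlap, against 20.4% and 14.5% of all genes, and a median log2 difference of 0.33. Mycn, a let-7 target that encodes a growth-promoting transcription factor, was 10.55 and 12.06 TPM in the negative and 15.50 and 38.26 in the positive libraries. Hmga2, a chromatin protein and let-7 target, was 0.44 and 0.45 against 1.10 and 4.12 TPM. Mycn stood higher in both positive libraries, beside a Lin28a level that overlapped. Hmga2, counted among the 11, met the filter only through the positive libraries, which fixed its direction. In the group of uridine and pyrimidine enzymes and transporters, 12 of 16 genes were tested and none passed, with 3 higher and 2 lower without overlap and a median of -0.18. These counts are near the 20.4% and 14.5% of all genes. Tk1, the cytosolic thymidine kinase of dividing cells, was 21.05 and 23.58 against 45.78 and 49.56 TPM, a log2 difference of 1.06 with a limma adjusted p of 0.850. Uckl1, a uridine-cytidine kinase family member, was 3.14 and 1.82 against 0.59 and 0 TPM. It met the filter only through the negative libraries, which fixed its direction. Uck2, which phosphorylates uridine, was 64.12 and 68.06 against 62.86 and 38.64 TPM, the lowest value again in CD87 positive library 2.

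A list around NEUROG3 held basic helix-loop-helix partners and inhibitors, Notch pathway genes, and Sox4 and Sox12, which are also in the SOX list. Of its 18 genes 13 were tested and none passed, with 5 higher (Sox4 among them) and 1 lower (Sox12) without overlap, against 20.4% and 14.5% of all genes, and a median log2 difference of 0.28. Hes1, a Notch target that represses Neurog3 in the developing pancreas and gut, was 2.22 and 4.64 TPM in the negative and 17.66 and 19.77 in the positive libraries, a log2 difference of 2.21 with a limma adjusted p of 0.595. Id4, an inhibitor of E-proteins that marks spermatogonial stem cells, was 9.21 and 12.43 against 34.39 and 24.83 TPM. Of the SOX family without Sox3, 8 of 18 genes were tested and none passed, with 2 higher and 4 lower without overlap and a median of -0.31. Sox13 was 11.23 and 15.31 against 26.72 and 26.61 TPM, whereas Sox12 was 15.83 and 11.67 against 9.0 and 10.17 TPM. The 13 tested genes of stem cell self-renewal, out of 17, were all higher without overlap with a median of 1.32, and none passed. This list was chosen with earlier results of these data known. Nanos2 (0.90 and 0.94 against 6.83 and 3.77 TPM) and Eomes (0.17 and 0 against 1.16 and 1.22 TPM) met the filter only through the positive libraries, which fixed their direction. The 12 genes of a differentiation list had a median of -0.45, with 7 lower and 1 higher without overlap and none passing. Not all are particular to differentiating spermatogonia. The 7 include Kitl, which encodes the ligand of KIT, and Uchl1, at 780.0 and 835.77 against 485.64 and 751.81 TPM. Of the 7, Kitl (1.1 and 1.5 against 0.65 and 0 TPM) met the filter only through the negative libraries. The higher one was Ccnd2, a cyclin of dividing spermatogonia, at 44.16 and 50.70 against 142.78 and 121.59 TPM, a log2 difference of 1.46 with a limma adjusted p of 0.457. Among the lower ones Kit, the receptor of differentiating spermatogonia, was 75.53 and 53.14 against 37.72 and 22.48 TPM, and Dmrtb1, a transcription factor that times meiotic entry, was 29 and 35.46 against 8.67 and 2.96 TPM.

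**Figure D2:**
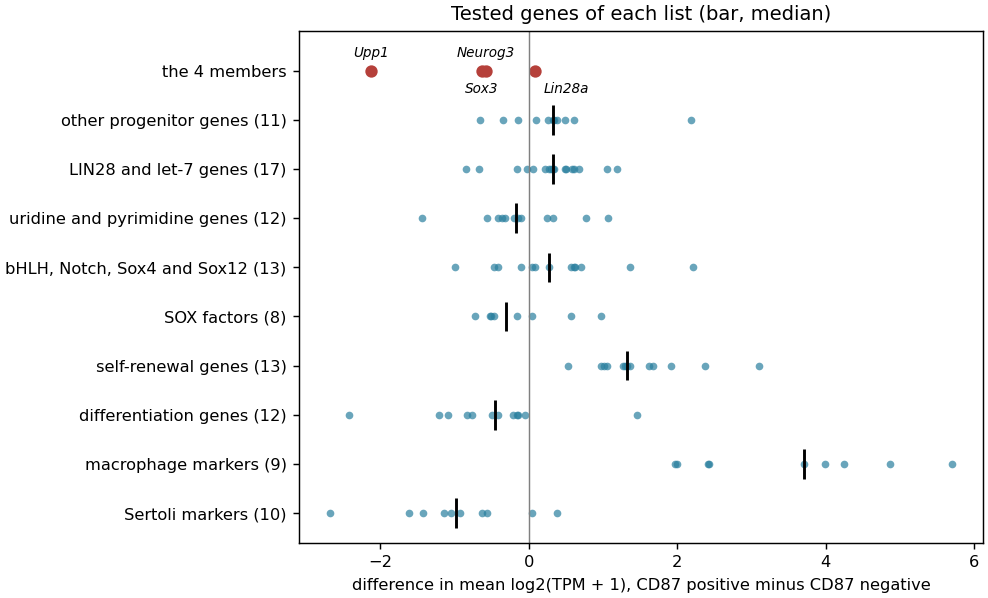
Log2 difference of log2(TPM + 1), CD87 positive minus CD87 negative (horizontal axis), for each tested gene of each list, with a bar at the list's median and the 4 progenitor-state genes on top. Sox3, Upp1 and Neurog3 lie below 0 and Lin28a lies near 0. The list of other progenitor genes, which also holds genes of undifferentiated spermatogonia at large, has a median of 0.33. The self-renewal genes have 1.32 and the macrophage markers 3.71. The macrophage markers Lyzs, Tyrobp, C1qa, C1qb, Laptm5 and Cd14 met the filter only through the CD87 positive libraries, which fixed their direction. The same holds for Nanos2, Eomes and Hmga2, and, through the CD87 negative libraries, for Uckl1 and Kitl.

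Within the KIT negative fraction, the second comparison placed each gene in 71 single cells grouped by the clusters I to IV that the authors deposited, with 9, 32, 24 and 6 cells. The clusters were made from these cells, so their differences are given with no test. Values are CPM, a cell's counts scaled to its total, which are not scaled by gene length, and a gene counts as detected at an expected count of at least 1. One count is worth 0.631 CPM at the median total, 5.49 at the lowest and 0.147 at the highest. Lin28a was detected in 57 of the cells, Upp1 in 31, Sox3 in 17 and Neurog3 in 3. At this cut Upp1 and Lin28a had their highest detected shares in cluster III, and the cells with Neurog3 were in clusters III and IV. At an expected count of at least 0.5 Upp1 stayed highest in cluster III (66.7%), but Lin28a stood at 87.5% in both clusters II and III. With all cells thinned to the same total, Lin28a stayed highest in cluster III (83.3%). Upp1 was then detected in 50% of cluster IV against 45.8% of cluster III. Intervals below are exact 95% Clopper-Pearson intervals, which cover counting error only.

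**Figure D3:**
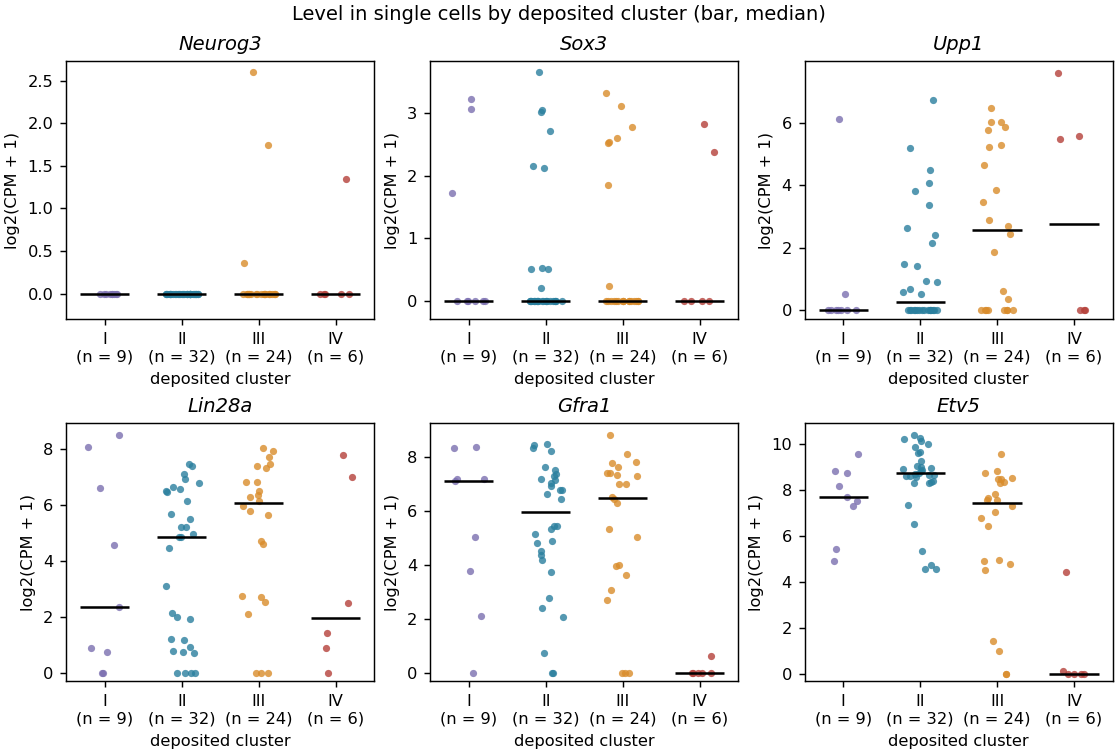
Log2(CPM + 1) (vertical axis) of the 4 progenitor-state genes and of Gfra1 and Etv5 in each of 71 single cells by deposited cluster (horizontal axis), with a bar at the median. The median of Lin28a is highest in cluster III and that of Upp1 in cluster IV, Neurog3 is at 0 in nearly all cells, and Gfra1 and Etv5 have a median of 0 in cluster IV.

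Neurog3 was detected in 3 of 71 cells, 4.23% (interval 0.880% to 11.9%), of which 2 were in cluster III and 1 in cluster IV. None of the 9 cells of cluster I and none of the 32 of cluster II had it, which, at 3 counts of the total, allows shares of up to 33.3% and 9.38% (exact upper bounds 33.6% and 10.9%). These limits hold for cells with at least 1 expected count, not for cells that express the gene. Counts were low in each: 2.63, 4.02 and 7.95 expected counts, or 1.54, 2.34 and 5.06 CPM, so that the highest cell held 54.8% of the summed CPM. At an expected count of at least 0.5 another cell appeared, in cluster III, at 0.281 CPM.

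The 3 cells with Neurog3 differed in their GDNF response genes. The cluster IV cell had Upp1 at 47.4 and Lin28a at 222 CPM, no Sox3, Gfra1 at 0.568 and Etv5 at 0.124 CPM, and Rarg at 90.5 CPM. Its Gfra1 and Etv5 values were each under 1 expected count. The first cluster III cell had Neurog3 at 2.34 CPM, Sox3 at 5.89, Upp1 at 24.3, Lin28a at 112, Gfra1 at 219, Etv5 at 0.998 and Rarg at 1.13 CPM. It was the 1 cell of 71 with all 4 members. The second cluster III cell had Neurog3 at 5.06 CPM, no Sox3, Upp1 at 38.7, Lin28a at 76.9, Gfra1 at 170, Etv5 at 157 and Rarg at 9.03 CPM. All 3 held Upp1 and Lin28a at levels above the medians of the 71 cells, 2 held Gfra1 above 100 CPM, and 1 held Etv5 above 100 CPM.

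Sox3 was detected in 17 of 71 cells, 23.9% (interval 14.6% to 35.5%), as 3 cells of cluster I, 6 of II, 7 of III and 1 of IV. Its median was 0 CPM in each cluster, and in the cells with Sox3 it ran from 2.30 to 11.6 CPM with a median of 5.89. It was therefore found in all 4 clusters and at a low level wherever it was found. When each cell was thinned to 182150 counts, Sox3 was detected in 10 cells (1, 4, 3 and 2 by cluster), so the shares are near the limit of this depth.

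Lin28a was detected in 80.3% of cells (interval 69.1% to 88.8%), or 6 of 9, 26 of 32, 21 of 24 and 4 of 6 cells in clusters I to IV. Median CPM was 4.14, 27.9, 66.1 and 3.18 in clusters I to IV, and 28 over all cells with quartiles of 1.28 and 97.7. The highest cells of the clusters, in order, reached 363, 175, 264 and 222 CPM, so every cluster held cells with high Lin28a and the ranges overlapped. The mean log2(CPM + 1) of cluster III exceeded that of II by 1.21, and by 1.49 after thinning. Among 12944 genes detected in at least 18 cells, 1.62% were higher by more than 1 in cluster III than in II and 6.42% lower, with a median difference of -0.16. Lin28b was detected in 63 cells with medians of 1.91, 13.6, 39.8 and 40.4 CPM. The 6 cells of cluster IV had Lin28a at 0, 0.874, 1.71, 4.65, 129 and 222 CPM, so its low median rests on 4 cells. After thinning, the Lin28a medians were 5.49, 19.2, 63.1 and 8.23 CPM in clusters I to IV, and the mean difference of cluster IV from II turned from -0.58 to 0.052.

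Upp1 was detected in 43.7% of cells (interval 31.9% to 56%). By cluster this was 1 of 9 cells in I, 13 of 32 in II (40.6%, interval 23.7% to 59.4%), 14 of 24 in III (58.3%, interval 36.6% to 77.9%) and 3 of 6 in IV. The intervals of clusters II and III overlap. Median CPM was 0, 0.214, 4.96 and 21.9 in clusters I to IV, and 0, 0, 0 and 13.7 after thinning, so the median of cluster III lies near the limit of this depth. The level was divided: the single detected cell of cluster I was at 69.8 CPM, and the 6 cells of cluster IV were at 0, 0, 0, 43.8, 47.4 and 195 CPM. At 30 CPM or more there were 13 cells, with 1, 2, 7 and 3 by cluster. In cluster II, a single cell at 106 CPM held 48% of the cluster's summed CPM. The mean log2(CPM + 1) in cluster III exceeded that in II by 1.36, and by 0.90 after thinning, which is under the size of 1 used for the lists. Cluster IV exceeded II by 1.82, and by 1.68 after thinning, while 5.11% of genes were higher and 27.3% lower by more than 1 in that comparison. Upp1 in cluster IV stands on 3 cells.

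Counted together at an expected count of at least 1, 5 cells had none of the 4 genes, 30 had 1, 31 had 2, 4 had 3 and 1 had all 4. The 5 cells with at least 3 were 4 in cluster III and 1 in cluster IV, with none in I or II. This rests on the cut, since at an expected count of at least 0.5 cluster II also held cells with 3. In one of these Sox3 and Upp1 were each at 0.988 expected counts, beside Lin28a at 83.0. The 5 cells with none at this cut were 1 in cluster I and 4 in cluster II. Some were just under it: the cluster I cell held Upp1 at 0.964 expected counts. Cells of cluster II held Lin28a at 0.955 and Sox3 at 0.981. Upp1 and Lin28a were detected together in 25 cells, Upp1 alone of the pair in 6, Lin28a alone in 32 and neither in 8.

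Each gene was then related to Gfra1 and Etv5 across the same cells, which share a capture method and differ in depth. Gfra1 was detected in 58 cells, with medians of 136.7, 64.4, 88.6 and 0 CPM in clusters I to IV, and Etv5 in 64 cells, with medians of 203, 421, 173 and 0 CPM. Between clusters II and III Gfra1 differed by 0.0056 in mean log2(CPM + 1) while Etv5 was lower in III by a difference of -2.22. Most cells with a progenitor-state gene also had both reference genes, but Gfra1 was detected in 81.7% and Etv5 in 90.1% of all 71 cells. The shared detection is therefore not read as a trait of the members. Gfra1 was found in 2 of 3 cells with Neurog3, 10 of 17 with Sox3, 25 of 31 with Upp1 and 49 of 57 with Lin28a. Etv5 was found in 2 of 3, 15 of 17, 26 of 31 and 52 of 57.

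**Figure D4:**
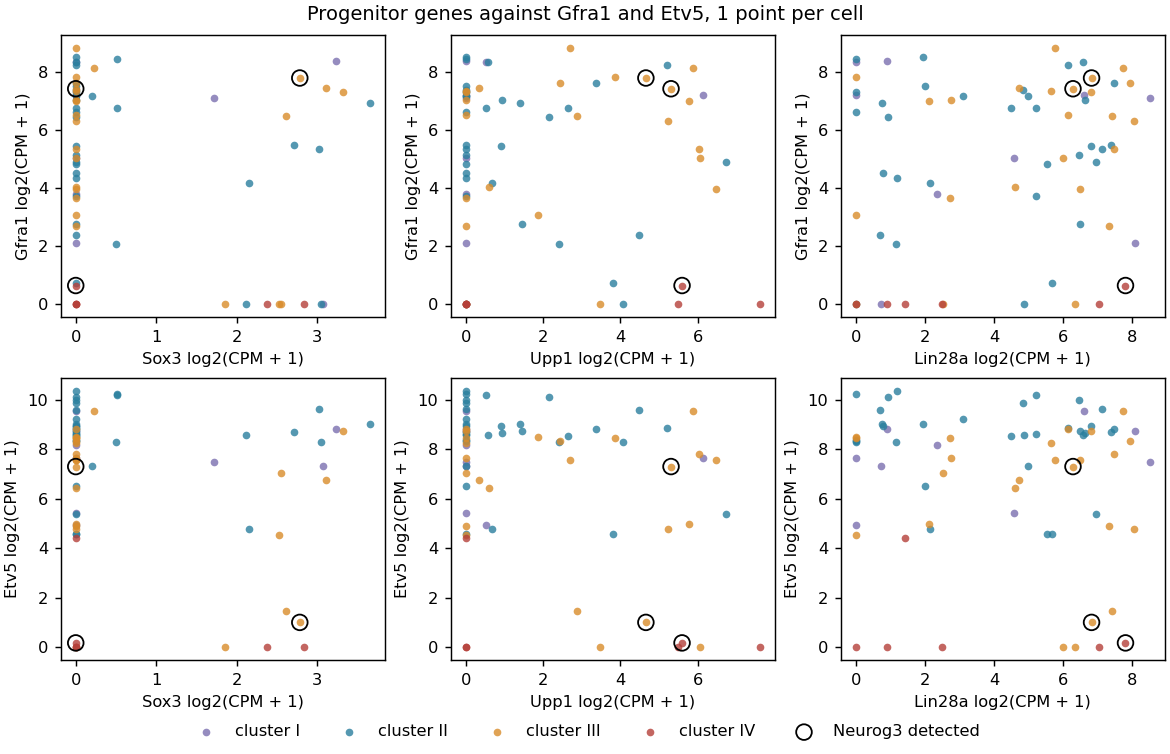
Log2(CPM + 1) of Sox3, Upp1 and Lin28a (horizontal axes) against Gfra1 and Etv5 (vertical axes) in 71 single cells, coloured by deposited cluster, with open circles around the cells with Neurog3. Cells with high Upp1 or Lin28a occur both with and without Gfra1, and Spearman's rho is weak for all pairs, between -0.26 and 0.10.

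Over all 71 cells, Spearman's rho of Upp1 with Etv5 was -0.26, and it was -0.20 in cluster II and -0.22 in cluster III. In clusters I and IV it was -0.37 and -0.032. These values rest on 2 cells with Upp1 above 0 in cluster I and 3 cells with Etv5 above 0 in cluster IV. Only 1 cell in each case reached an expected count of 1, so nothing is read from the rho of these 2 clusters. Over the other choices of cells and measure it was -0.21 after thinning, -0.29 with the total count held fixed, -0.26 without cluster IV and -0.45 in the 26 cells with both genes, with a Pearson r of -0.36. The correlation is weak, and 1.54% of 10099 genes detected in at least 36 cells had a lower rho with Upp1. Upp1 and Gfra1 had a rho of 0.018, with -0.22 in cluster II and 0.22 in cluster III. The 2 reference genes themselves had a rho of 0.38 over all cells, 0.22 without cluster IV and 0.067 in the 57 cells with both.

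Lin28a had a rho of 0.10 with Gfra1 and -0.036 with Etv5. Sox3 had a rho of -0.10 with Gfra1 and -0.070 with Etv5 over all cells, but 0.43 and 0.46 in the 10 and 15 cells where both were detected. The sign turned when the cells at 0 were left out, and at such low counts neither value is read as a relation. For Neurog3, with 3 cells, the cells are described above in place of a correlation. The rho with a cell's total count was 0.13 for Neurog3, 0.051 for Sox3, 0.099 for Upp1, 0.0092 for Lin28a, 0.22 for Gfra1 and 0.19 for Etv5. The cluster IV values for Gfra1 rest on 1 cell with a value above 0, at 0.568 CPM.

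**Figure D5:**
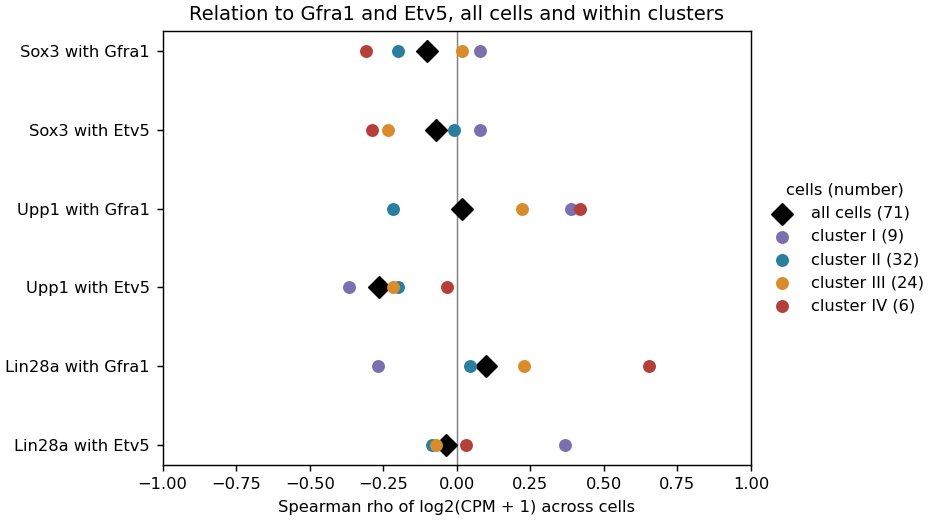
Spearman's rho (horizontal axis) of Sox3, Upp1 and Lin28a with Gfra1 and Etv5, with diamonds for all 71 cells and circles for the deposited clusters. The rho of Upp1 with Etv5 is -0.20 in cluster II and -0.22 in cluster III. Its value in cluster I rests on 2 cells with Upp1 above 0, and that in cluster IV on 3 cells with Etv5 above 0.

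Among the members themselves, rho was 0.14 for Upp1 and Lin28a, with -0.72, 0.13, 0.37 and 0.27 in clusters I to IV. The value in cluster I rests on 2 cells with Upp1 above 0, at 69.8 and 0.426 CPM, which both had Lin28a at 0. Sox3 had a rho of -0.13 with Upp1 and -0.096 with Lin28a. All are weak over the 71 cells.

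The genes whose pattern was most like each member's were ranked by Spearman's rho over 71 cells among genes detected in at least 36. For Upp1 these were 4933407C03Rik at 0.46, LOC666244 at 0.44, Sox12 and Aamp both at 0.40 and Pkp1 at 0.39. For Lin28a they were A230042K10Rik at 0.44, Nucb1 at 0.42, E430025E21Rik at 0.41, Arhgap30 at 0.39 and 1500011H22Rik at 0.38. For Sox3 they were EG433225 at 0.44, Sos1 at 0.43, Pmm1 and Rassf3 both at 0.40 and Lemd1 at 0.39. After thinning the values of these 15 genes were lower for all except EG433225, which was 0.52, and the lowest was 0.20 for Pkp1 with Upp1. Each was picked as one of the highest of 10099 values, and Sox12 is also a gene that was lower without overlap in the CD87 positive libraries.

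The lists were also followed from cluster II to cluster III, with the share of genes that differed by more than 1 in mean log2(CPM + 1). Over all 12944 genes compared, 1.62% were higher and 6.42% lower by more than 1. Of 11 other progenitor genes 2 were higher and 1 lower by more than 1, with a median of 0.20 against -0.16 over all genes. Sohlh1 was higher by 1.67, with medians of 0.44, 7.62, 61.5 and 35.2 CPM in clusters I to IV, Lin28b by 1.10, and Cdh1 had a difference of -1.77. Of 10 genes of the differentiation list 1 was higher and 1 lower, with Dnmt3b, a DNA methyltransferase of maturing germ cells, at 1.07 and Kit at -1.37. Dnmt3b had medians of 3.48, 29.7, 137 and 193 CPM. Of 12 self-renewal genes none was higher and 4 were lower, led by Lhx1 at -2.78, Tspan8 at -2.26, Etv5 at -2.22 and Ret, the signalling partner of GFRA1, at -1.30.

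Around the single members the same comparison showed little, beside the 1.62% of all genes that were higher and the 6.42% that were lower by more than 1. Of 17 LIN28 and let-7 genes 1 was higher, Lin28b, and 1 lower, Zcchc6 (a uridylyl transferase that acts with LIN28) at -1.46. None of 11 uridine and pyrimidine genes passed 1 in either direction, beside the difference of 1.36 of Upp1, and the widest was Slc28a3, a nucleoside carrier, at -0.92. Of 11 genes of the list around NEUROG3, which include Sox4 and Sox12, none was higher and 1 lower, Notch1 at -1.33. Of 8 genes of the SOX list, which holds the same pair, none passed 1. Neurog3 and Sox3, detected in 3 and 17 cells, were below the minimum of 18 cells for this list comparison. Their differences between clusters III and II were 0.20 and 0.22, and 0 and -0.046 after thinning.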

How the data were processed

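RNA of 2 CD87 negative and 2 CD87 positive libraries and of 71 KIT negative single cells was analysed. For the CD87 libraries the authors deposited TPM, made with Trim Galore and RSEM on mm9, and for the cells expected counts, made with Trim Galore and Salmon on mm9, per the submitters' processing notes. Neither versions nor annotation is given in the sources used here. Column headers of the single-cell table give the age as P6 where the labels give postnatal day 5.5; columns were matched by cell number. Date-mangled gene names (22 rows, at most 0.609% of a cell's counts) were left out before CPM were computed from column totals. The TPM columns summed to 580440 to 635203, of which one row, LOC672857, held 23.9% to 31.2%.

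CD87 groups were compared with limma 3.58.1 (R 4.3.3) on log2(TPM + 1), which understates the change of low genes. Genes with at least 1 TPM in at least 2 libraries entered. Empirical Bayes shrinkage followed a mean-variance trend, and the two-sided test used Benjamini-Hochberg adjustment at 0.05 over all genes. An exact permutation test of 2 against 2 cannot go below 0.333. Correlations across cells used log2(CPM + 1) with SciPy 1.17.1 and carry no p. Thinning drew each cell, with expected counts rounded, to 182150 counts once. Doublets were neither called nor removed. Intervals and the limit for a count of 0 (3 counts) cover counting error only.

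The members and the 13 lists were chosen with earlier results of these data known. Of 168 list entries, 160 matched a symbol directly, 7 an older symbol in a RefSeq table of GRCm38.p6, and 1 none. Named list genes are taken from up to 4 per list with the smallest limma p and up to 4 with the largest cluster III minus II difference. Neighbours are the 5 genes with the highest rho to a member detected in at least 10 cells. Alternatives were other pseudocounts, no filter, rescaling, no variance trend, a replicate block, each library left out, thinning, other cell scalings and other correlation measures. Promoter sequences are from RefSeq, build GRCm38.p6, with an entry for 3 of the 4 members.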

Additional observations from a re-analysis of the deposited data

How the results depend on the processing

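Of the CD87 log2 differences of the 4 members, 36 of 40 recomputed values kept direction and side of the threshold. The sign turned for Neurog3 without CD87 negative library 1 (0.43) and for Lin28a with rescaled TPM (-0.028), without CD87 negative library 1 (-0.042) and without CD87 positive library 1 (-0.022), and the cause was not tested. With 1 library left out in turn, which leaves a group with 1 library assumed to vary like the other group, values ran from -1.59 to 0.43 for Neurog3, -0.75 to -0.51 for Sox3, -2.95 to -1.29 for Upp1 and -0.042 to 0.20 for Lin28a, and 0 to 0 genes were called. Adjusted p over all alternatives ran from 0.884 to 0.99995 for Neurog3, 0.224 to 0.99995 for Sox3 and 0.962 to 0.99995 for Lin28a. The 3 genes called higher became 1 with a pseudocount of 0.1, 1 with no filter, 1 with rescaled TPM and 0 with no variance trend. The labels share a number between groups but do not say that it pairs libraries, and same-numbered deviations correlated at 0.068. A replicate block called 84 genes higher and 46 lower, with adjusted p of 0.236 for Upp1 and 0.867 for Sox3, and called none of the 4.

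Thinning moved the share of cells to 0% for Neurog3 in cluster III, to 14.1% for Sox3 in all cells and 12.5% in cluster III, and to 69% for Lin28a in all cells and 62.5% in cluster II, whereas 35 of 40 recomputed shares stayed within their exact intervals. All 40 medians moved by less than 1 SD over the cells, a wide limit in such uneven values, under which the Upp1 median of cluster III went to 0 CPM. Of 30 recomputed rho values 25 moved by less than 0.1. The others were Pearson r of Sox3 with Gfra1 (-0.21) and with Etv5 (-0.17), and, in cells with both genes, Sox3 with Gfra1 (0.43), Sox3 with Etv5 (0.46) and Upp1 with Etv5 (-0.45).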

Other observations

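Lin28b and Kit add to the description of the 3 cells with Neurog3. Lin28b was at 17.4 CPM in the cluster IV cell and at 4.81 and 0.613 CPM in the cluster III cells. Kit was at 0 in the cluster IV cell and at 0 and 0.613 CPM in the cluster III cells, in a sort that selected against KIT protein. Kit transcript was nevertheless detected in 36 of the 71 cells.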
